A study of Mus musculus with 10 samples.

Results

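Lines IMM 1, IMM 2 and IMM 8 of the B16OVA mouse melanoma grew out when mice immunized against their antigen were re-challenged. These 3 lines were set against the 6 that did not grow on such re-challenge (NIMM 1, 3 and 4 and GKO-IMM 1, 2 and 3). The genes described are those whose log2 intensity lay beyond all 6 other arrays, on the same side, on all 3 IMM arrays. That was so for 1111 of 16352 genes tested (6.79%), with 628 above (3.84%) and 483 below (2.95%) the 6 others. Genes were tested where their mean log2 intensity over the 9 lines exceeded 4.74, and among the 7008 dimmer genes 219 met the same description (3.12%), which makes 1330 of 23360 (5.69%) in all. The 9 lines come from a series of 10, and the remaining line, the untreated parent, entered neither the choice nor the tests.

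B16OVA is a C57BL/6 melanoma line that carries ovalbumin (OVA), a chicken egg protein used as a model tumour antigen. Each of the 9 lines is described as a variant recovered from a tumour. The NIMM lines came from naive B6 mice, the IMM lines from B6 mice immunized with OVA, and the GKO-IMM lines from OVA-immunized mice that lack interferon-gamma (IFN-γ). All lines share the melanoma background and the antigen. Lines from naive hosts without IFN-γ are not among the 10, and within the GKO-IMM lines the effect of immunization cannot be told apart from that of the host's deficiency. The lines that grew on re-challenge are exactly those from immunized B6 mice, so growth cannot be told apart from that origin. RNA of each line was measured on 1 Affymetrix mouse gene array. Nothing in the labels says how many cells or clones founded a line, or that the lines of a group came from separate mice. The p-values therefore measure the spread between these lines, which may be technical in part.

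Cytotoxic T cells recognise tumour cells through antigen peptides held by MHC class I molecules, and IFN-γ released by T cells raises antigen presentation in the tumour cell through its receptor and the JAK and STAT proteins. Tumours that grow in an immune host are known to lose antigen, antigen presentation or IFN-γ signalling, to display ligands that inhibit lymphocytes, or to make suppressive factors such as TGF-β. In melanoma, a shift away from the pigmented, melanocyte-like state is a further known route.

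The median intensity of an array was 31.9 to 32.5. Pairs of arrays had correlations of 0.989 to 0.998 over the log2 intensities of all genes, which are not independent of each other. NIMM 4 stood apart from NIMM 1 and NIMM 3: it had the lowest weight of the 9 arrays (0.35, against 0.61 to 1.68 for the other lines) in a fit that estimates 1 weight per array. The counts over all genes, and the lists whose counts changed without it, are therefore also given without it. The melanoma markers Mitf, Sox10, Tyr, Tyrp1, Dct, Pmel and Mlana were bright in every line, with summed intensities of 27138 to 29293 in the IMM lines and 26867 to 28061 in the 6 others. Of the 45 markers of T cells, B cells, natural killer cells, macrophages, dendritic cells, fibroblasts, endothelial cells and keratinocytes on the array, 20 lay under the filter on dim genes. None of them exceeded an intensity of 78.3 on any of the 10 arrays. Summed dendritic cell markers were at intensities of 114 to 118 in the IMM lines and 103 to 112 in the others, and summed fibroblast markers at 246 to 266 and 244 to 257. The arrays measured RNA of a whole culture, so fewer cells of a kind and less RNA per cell cannot be told apart.

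By the linear model, 132 of the 16352 genes tested (0.807%) differed between the IMM lines and the mean of the NIMM and GKO-IMM groups, at a Benjamini-Hochberg adjusted p under 0.05 over all genes (limma). Of these, 50 rose (0.306%) and 82 fell (0.501%). An unadjusted p under 0.05 was found for 2688 genes (16.4%), the share against which the unadjusted counts of the lists below are to be read. List counts of genes that rose, fell or lay beyond all 6 others are likewise to be read against the shares over all genes given above. In 119 of the 132 the arrays also did not overlap, 44 higher and 75 lower in the IMM lines, and this count uses the same values as the test. Most of the 1111 genes without overlap differed by little: the median difference was 0.17 among those above and -0.21 among those below, on the log2 scale, and 10.7% of them passed. Among the 119, the median differences were 0.47 and -0.42. At least 0.5 log2 units separated the groups for 19 of the higher and 24 of the lower genes, and at least 2-fold for 2 in each direction. The median difference over all genes tested was 0.01. Without NIMM 4, 1274 genes did not overlap and 304 passed, among them all of the 119. The count of 132 became 52 without IMM 1, 41 without IMM 8, and 54, 64 and 39 without GKO-IMM 1, 2 and 3, while without IMM 1, 2 and 8 the count without overlap was 2182, 2488 and 1947. With the NIMM and GKO-IMM lines fitted as 1 group of 6, 49 of the 119 passed, and among the largest rises the calls for Slc44a3 (adjusted p = 0.0695), Mcoln3 (0.078), Cp (0.0715) and Gsta4 (0.0529) ended. In the same fit, adjusted p lay between 0.0538 and 0.104 for Snai2, Edil3, Cd276, Capn5, Etv1, Acot1, Lrp2, Lrp8, Erf, Ccn4, Clpb, Tgfb1, Slc7a8, Dst, Arfgef3, Gstp2, Pde11a, Gpt, Mir5125 and Sulf2. It lay between 0.11 and 0.263 for Mir673, Ltbp4, Aox1, Ifnlr1, Nfyc, Elapor2, Atp8a1, Igf2bp3, Arhgdib, Clu, Tinagl1, Plekhm1, Rnu11 and Postn, so that none of these genes passed there. Under all 20 alternatives tried, 21 of the 119 passed: Abcc2, Abraxas2, Adam23, Blvrb, Car6, Ctbp2, Eef1akmt2, Fndc4, Gpm6a, Inppl1, Nexn, Nr1i2, Numa1, Olfr566, Selenow, Soga3, Stim1, Tle5, Trim21, Trim68 and Zranb1. All the values given below as an adjusted p without a line, or as reaching up to a value, come from the 9 fits that each left out 1 line.

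**Figure D1:**
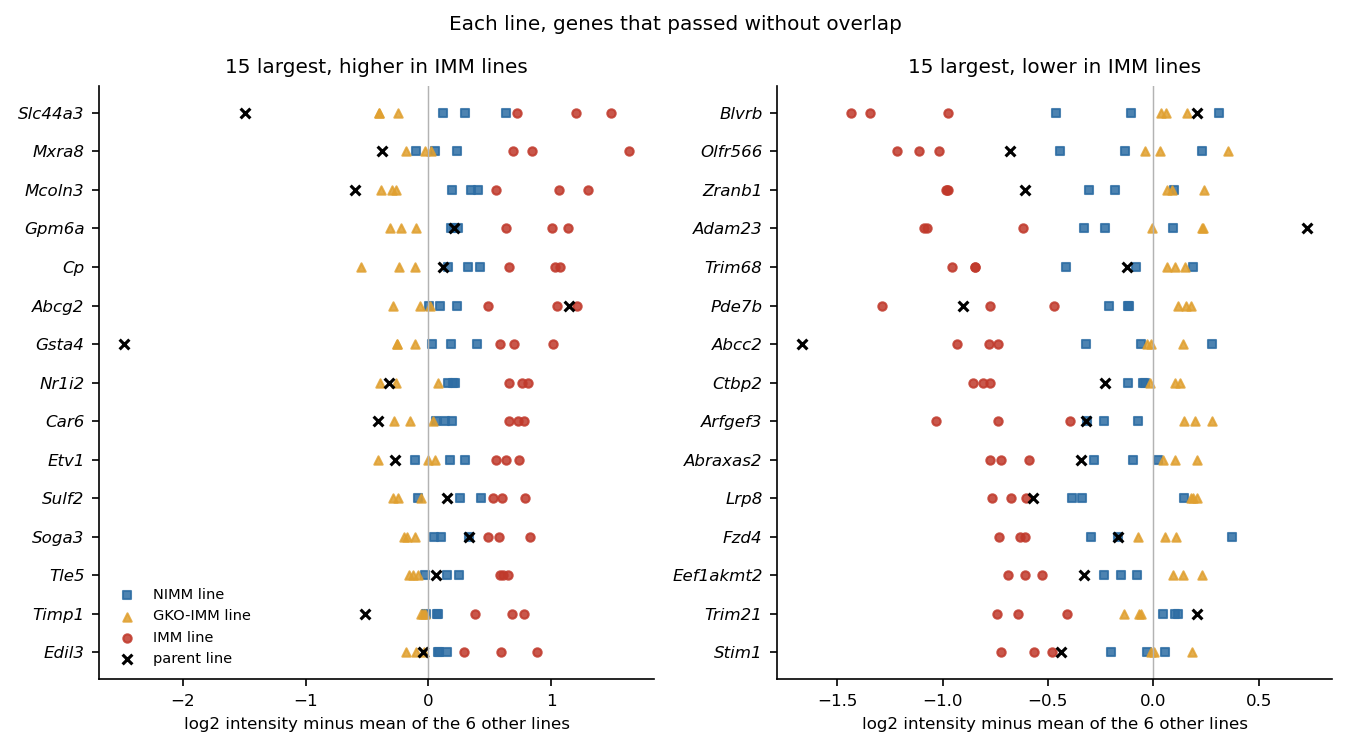
Log2 intensity of each line minus the mean of the 6 NIMM and GKO-IMM lines (x axis) for 15 genes per direction, those with the largest differences of the genes that passed without overlap, leaving aside predicted genes. Each point is 1 line, with circles for IMM, squares for NIMM, triangles for GKO-IMM and crosses for the parent; in every row the 3 circles lie beyond all squares and triangles, by 0.09 for Slc44a3 and by 0.67 for Zranb1.

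Slc44a3, a member of the choline transporter-like family, had the largest rise of the genes that passed. It read 8.36, 7.59 and 8.08 in IMM 1, 2 and 8, 7.50, 7.17 and 6.99 in NIMM 1, 3 and 4, and 6.47, 6.62 and 6.47 in GKO-IMM 1, 2 and 3 (log2 intensity). All 3 IMM lines were above the NIMM lines, the nearest of which was NIMM 1, and the GKO-IMM lines were lowest. The difference was 1.14 ± 0.15 (SE of the model; 2.20-fold; adjusted p = 0.00596). The parent line, at 5.37, was below all 9. Of 15 choline and phosphatidylcholine genes tested, Slc44a3 rose, none fell, and the median was 0.04. The gene spans chr3:121459528-121532344 in mouse build GRCm38 (mm10).

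Mxra8, an immunoglobulin-like cell surface protein that alphaviruses use as an entry receptor, had log2 intensities of 6.49, 6.65 and 7.43 in IMM 1, 2 and 8, against 6.04, 5.70 and 5.86 in NIMM 1, 3 and 4 and 5.62, 5.77 and 5.82 in GKO-IMM 1, 2 and 3. IMM 8 was highest, and the NIMM and GKO-IMM lines were interleaved. Mxra8 rose by 1.06 ± 0.17 (2.08-fold; adjusted p = 0.0201), a call that ended without GKO-IMM 1 (adjusted p = 0.0611) or GKO-IMM 3 (0.0593). Its other transcript clusters on the array differed by 0.40 and 0.09. Mcoln3, an endolysosomal cation channel, read 6.72, 7.47 and 7.23 in IMM 1, 2 and 8, 6.36, 6.52 and 6.57 in NIMM 1, 3 and 4, and 5.91, 5.87 and 5.79 in GKO-IMM 1, 2 and 3 (log2 intensity). GKO-IMM lines were lowest, NIMM lines intermediate and IMM 1 closest to them, with a difference of 0.97 ± 0.13 (adjusted p = 0.00596; 0.0519 without IMM 8). It was the only one of 28 endolysosomal genes tested that passed; the list had a median of 0.01.

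Gpm6a, a membrane glycoprotein of the proteolipid family best known from neurons, had log2 intensities of 7.25, 7.38 and 6.87 in IMM 1, 2 and 8, against 6.43, 6.48 and 6.45 in NIMM 1, 3 and 4 and 6.14, 5.93 and 6.02 in GKO-IMM 1, 2 and 3. The groups were well separated, the IMM lines lying 0.39 above the highest other line. Its rise of 0.92 ± 0.10 (1.90-fold; adjusted p = 0.00201) was kept in every alternative tried. Among the 8 proteolipid and collapsin response genes tested it alone passed, and without NIMM 4 another member fell. The gene spans chr8:54779434-55060878.

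The promoters of Slc44a3 and Gpm6a are shown because, of the genes that rose, these had the largest rises among those whose listed promoter holds CAGGTG, the E-box letters bound by the repressor Snai2, a gene that fell in the IMM lines and is described further on. Both are from RefSeq, build GRCm38.p6, 300 bases around the gene's start, with the motif in capitals. The Slc44a3 promoter lies at chr3:121532295-121532594 on the minus strand and the Gpm6a promoter at chr8:54779184-54779483 on the plus strand.
Slc44a3: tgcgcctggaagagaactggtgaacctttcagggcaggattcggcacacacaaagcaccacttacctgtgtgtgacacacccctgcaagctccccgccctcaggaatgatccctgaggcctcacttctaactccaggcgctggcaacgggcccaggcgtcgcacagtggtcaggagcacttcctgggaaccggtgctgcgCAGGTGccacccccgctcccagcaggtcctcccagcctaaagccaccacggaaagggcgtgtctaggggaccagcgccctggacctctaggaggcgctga
Gpm6a: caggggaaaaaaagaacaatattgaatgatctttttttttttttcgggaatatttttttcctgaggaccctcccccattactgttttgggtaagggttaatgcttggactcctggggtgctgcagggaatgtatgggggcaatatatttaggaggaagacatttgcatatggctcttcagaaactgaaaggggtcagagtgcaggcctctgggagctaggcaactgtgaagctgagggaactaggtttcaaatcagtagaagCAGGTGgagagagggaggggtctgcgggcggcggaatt
Each holds 1 match, counting CAGGTG on either strand. A promoter was given for 32 of the 44 higher genes and 62 of the 75 lower genes, and the motif was in 10 (31.2%) and 13 (21.0%) of these, against 19.3% of the promoters of 12172 genes tested. These shares are descriptions, and a match is not a binding site.

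Genes of detoxification and metal handling were found in both directions. Cp, the copper-carrying ferroxidase ceruloplasmin, read 9.35, 9.39 and 8.97 in IMM 1, 2 and 8, 8.64, 8.48 and 8.74 in NIMM 1, 3 and 4, and 8.21, 8.08 and 7.77 in GKO-IMM 1, 2 and 3 (log2 intensity). Every IMM line was above every other line, and the GKO-IMM lines were below the NIMM lines. Cp rose by 0.92 ± 0.11 (adjusted p = 0.00497). Blvrb, a biliverdin and flavin reductase at the end of heme breakdown, had log2 intensities of 7.13, 7.50 and 7.04 in IMM 1, 2 and 8, against 8.01, 8.37 and 8.78 in NIMM 1, 3 and 4 and 8.53, 8.51 and 8.63 in GKO-IMM 1, 2 and 3. All IMM lines were at least 0.51 below the lowest other line, NIMM 1. Blvrb showed the largest fall of the genes that passed, -1.25 ± 0.14 (2.38-fold lower; adjusted p = 0.00352), and lies at chr7:27447978-27465981. Of 28 heme and iron genes tested, these were the only ones that passed, and the list's median was -0.06. The heme transporter gene Slc48a1 was also below all 6 others, at -0.49 ± 0.10 (adjusted p = 0.055). Without NIMM 4 it passed (adjusted p = 0.00337), and 1 gene of the list rose and 2 fell.

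Abcg2, an efflux pump for drugs and porphyrins, had log2 intensities of 6.06, 6.23 and 5.50 in IMM 1, 2 and 8, against 5.25, 5.11 and 5.02 in NIMM 1, 3 and 4 and 4.95, 4.73 and 5.03 in GKO-IMM 1, 2 and 3. IMM 1 and IMM 2 were farthest from the others and IMM 8 nearer to them. The rise was 0.91 ± 0.13 (adjusted p = 0.0135; 0.0629 without IMM 1), and the parent, at 6.17, lay among the IMM lines. Nr1i2, the pregnane X receptor, a nuclear receptor that senses xenobiotics, read 6.07, 6.23 and 6.18 in IMM 1, 2 and 8, 5.63, 5.57 and 5.62 in NIMM 1, 3 and 4, and 5.49, 5.15 and 5.03 in GKO-IMM 1, 2 and 3 (log2 intensity). The 3 IMM lines were within 0.16 of each other and above all others, with a difference of 0.74 ± 0.09 (adjusted p = 0.00394). Abcc2, an efflux pump for conjugated compounds, went the other way and had log2 intensities of 8.64, 8.45 and 8.60 in IMM 1, 2 and 8, against 9.06, 9.32 and 9.66 in NIMM 1, 3 and 4 and 9.37, 9.34 and 9.52 in GKO-IMM 1, 2 and 3. No IMM line reached the others, the difference was -0.81 ± 0.11 (adjusted p = 0.00596), and the parent, at 7.71, was lower still. Slco3a1, an organic anion transporter encoded on chromosome 7, fell by 0.48 ± 0.07 on the log2 scale (adjusted p = 0.0143). That call ended without IMM 1 (adjusted p = 0.0635) or IMM 8 (0.0899). Of 18 genes for efflux pumps and xenobiotic receptors, 2 rose and 2 fell, and the median was 0.01.

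Gsta4, a glutathione transferase for products of lipid peroxidation, read 9.34, 9.02 and 8.91 in IMM 1, 2 and 8, 8.36, 8.51 and 8.72 in NIMM 1, 3 and 4, and 8.22, 8.07 and 8.07 in GKO-IMM 1, 2 and 3 (log2 intensity). The IMM lines were highest and NIMM 4 came next, and Gsta4 rose by 0.77 ± 0.10 (adjusted p = 0.00596). The parent was far below all 9 lines, at 5.85. Gstp2, another glutathione transferase, fell by 0.35 ± 0.07 on the log2 scale (adjusted p = 0.0379), and this call ended in 7 of the 9 fits that left out 1 line (adjusted p up to 0.177, without IMM 8). The other 23 of 25 glutathione and NRF2 genes tested did not pass, and the list's median was -0.14. Srxn1, a sulfiredoxin, was at -0.92 ± 0.26 (adjusted p = 0.132), with NIMM 1 and NIMM 3 inside the range of the IMM lines. Without NIMM 4, 1 gene of this list rose and 5 fell.

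Matrix genes were among those that rose. Of 28 genes for extracellular matrix and its proteases, 4 rose, none fell and 24 did not pass, and the median was 0.06. The members that rose were Mxra8, Timp1, Postn and Tinagl1. Ccn4 and Ltbp4, also proteins of the matrix and described below, were not on this list and fell. The balance of the list therefore depends on its choice of members. Timp1, an inhibitor of matrix metalloproteinases, read 5.68, 6.08 and 5.98 in IMM 1, 2 and 8, 5.37, 5.38 and 5.28 in NIMM 1, 3 and 4, and 5.28, 5.24 and 5.26 in GKO-IMM 1, 2 and 3 (log2 intensity). The 6 other lines were within 0.14 of each other and all IMM lines were above them, with a rise of 0.61 ± 0.08 (adjusted p = 0.00596). Postn and Tinagl1 passed although their arrays overlapped. Postn, the matricellular protein periostin, had log2 intensities of 5.61, 5.59 and 5.53 in IMM 1, 2 and 8, against 5.57, 5.42 and 5.33 in NIMM 1, 3 and 4 and 5.04, 4.77 and 4.93 in GKO-IMM 1, 2 and 3. IMM and NIMM lines were interleaved there and the GKO-IMM lines were lower. The model difference was 0.40 ± 0.07 (adjusted p = 0.0279; up to 0.113, without IMM 8, and 0.263 with the 6 others as 1 group). In Tinagl1, a basement membrane-associated protein, the overlap was by 0.0071 log2 units, and the difference was 0.38 ± 0.07 (adjusted p = 0.0324). Its call was lost without any one of 5 lines (adjusted p up to 0.125, without IMM 1). Fibroblast markers, whose summed intensities are given above, had a median difference of 0.12 over 5 genes tested, 1 of them above all 6 others, 3 with an unadjusted p under 0.05 and none past the test; their part in the matrix result was not tested.

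Car6, a secreted carbonic anhydrase, read 10.07, 10.15 and 10.20 in IMM 1, 2 and 8, 9.61, 9.55 and 9.48 in NIMM 1, 3 and 4, and 9.46, 9.14 and 9.27 in GKO-IMM 1, 2 and 3 (log2 intensity). The IMM lines were within 0.13 of each other and lay 0.47 above the nearest other line, for a rise of 0.72 ± 0.07 (adjusted p = 0.00152). Sulf2, which removes sulfate groups from extracellular heparan sulfate, rose by 0.64 ± 0.10 (adjusted p = 0.0203). The call for Sulf2 ended without any one of 5 lines (adjusted p up to 0.1, without IMM 8). Edil3, a secreted integrin ligand, rose by 0.59 ± 0.10 (adjusted p = 0.0251; up to 0.0947, without IMM 1). Its IMM lines spread widely, from 5.12 in IMM 2 to 5.72 in IMM 8. Soga3 rose by 0.63 ± 0.08 (adjusted p = 0.00596). Adam23, a catalytically inactive member of the ADAM family that binds integrins, fell and had log2 intensities of 6.32, 6.79 and 6.33 in IMM 1, 2 and 8, against 7.08, 7.18 and 7.50 in NIMM 1, 3 and 4 and 7.64, 7.40 and 7.64 in GKO-IMM 1, 2 and 3. IMM 2 was nearest to the others, and the difference was -0.93 ± 0.12 (adjusted p = 0.00596). The parent, at 8.13, was above all 9 lines. Of 14 ADAM family genes, none rose, Adam23 fell and the median was 0.02. Without NIMM 4, 1 rose and 1 fell.

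Among transcription regulators, Tle5, a short Groucho-family protein, read 10.83, 10.87 and 10.80 in IMM 1, 2 and 8, 10.47, 10.37 and 10.20 in NIMM 1, 3 and 4, and 10.06, 10.10 and 10.14 in GKO-IMM 1, 2 and 3 (log2 intensity). The 3 IMM lines were within 0.07 of each other and 0.33 above the nearest other line, a rise of 0.61 ± 0.06 (adjusted p = 0.00199). Ctbp2, a corepressor that docks on DNA-bound repressors, had log2 intensities of 7.16, 7.13 and 7.08 in IMM 1, 2 and 8, against 7.82, 7.89 and 7.90 in NIMM 1, 3 and 4 and 7.92, 8.04 and 8.06 in GKO-IMM 1, 2 and 3. Its 3 IMM lines lay 0.65 below the lowest of the others. The difference of -0.81 ± 0.05 (1.76-fold lower) had the smallest adjusted p of all genes tested (0.000105). Of 17 CtBP and Groucho corepressor genes, 1 rose and 1 fell, and the median was 0.05. Etv1, an ETS-family transcription factor, read 6.34, 6.52 and 6.42 in IMM 1, 2 and 8, 5.96, 6.08 and 5.68 in NIMM 1, 3 and 4, and 5.84, 5.37 and 5.78 in GKO-IMM 1, 2 and 3 (log2 intensity). No IMM line overlapped the others and the rise was 0.64 ± 0.11 (adjusted p = 0.0257), but its other transcript cluster differed by 0.11, and the call ended without IMM 1, IMM 2, IMM 8 or GKO-IMM 3 (adjusted p 0.0627 to 0.128). Snai2, the neural crest repressor also called Slug, had log2 intensities of 8.54, 8.56 and 8.62 in IMM 1, 2 and 8, against 8.75, 9.0 and 9.17 in NIMM 1, 3 and 4 and 8.97, 8.96 and 9.04 in GKO-IMM 1, 2 and 3. IMM lines were lowest and NIMM 1 was nearest to them. Snai2 fell by 0.41 ± 0.08 on the log2 scale (adjusted p = 0.0392), a call kept without NIMM 1 or NIMM 4 and lost without each of the 7 other lines (adjusted p 0.076 to 0.144). Of 18 dedifferentiation and epithelial-mesenchymal transition genes, Snai2 alone passed and the median was -0.01. Axl, a receptor kinase of that list, was below all 6 others at -0.28 ± 0.07 (adjusted p = 0.0943). Axl lies on chromosome 7, where many genes were lower in the IMM lines, as described further on.

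Genes of the ubiquitin system were found among those that fell. Zranb1, a deubiquitinase also called TRABID, read 7.84, 7.83 and 7.83 in IMM 1, 2 and 8, 8.50, 8.63 and 8.91 in NIMM 1, 3 and 4, and 8.90, 9.05 and 8.88 in GKO-IMM 1, 2 and 3 (log2 intensity). All 3 IMM lines were at the same level, 0.67 below the nearest other line. The difference was -0.98 ± 0.08 (1.97-fold lower; adjusted p = 0.000702). A second, dimmer transcript cluster of Zranb1 did not share it, with a difference of 0.09. Trim68, a ubiquitin ligase, had log2 intensities of 5.60, 5.49 and 5.60 in IMM 1, 2 and 8, against 6.03, 6.36 and 6.63 in NIMM 1, 3 and 4 and 6.55, 6.59 and 6.51 in GKO-IMM 1, 2 and 3. IMM lines were lowest and NIMM 1 came next, with a difference of -0.88 ± 0.10 (adjusted p = 0.00352). Trim21, a ubiquitin ligase that binds antibody inside the cell, read 6.21, 5.88 and 5.98 in IMM 1, 2 and 8, 6.74, 6.73 and 6.67 in NIMM 1, 3 and 4, and 6.49, 6.56 and 6.57 in GKO-IMM 1, 2 and 3 (log2 intensity). The IMM lines were lowest and the GKO-IMM lines next, a difference of -0.60 ± 0.07 (adjusted p = 0.00352). Of 16 A20-type deubiquitinase and TRIM ligase genes, none rose, these 3 fell and the median was -0.01. All 3 lie on chromosome 7, as does Abraxas2, the scaffold of the BRISC deubiquitinase complex, which fell by 0.70 ± 0.07 on the log2 scale (adjusted p = 0.00217).

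Of 14 cyclic nucleotide phosphodiesterase genes tested, 1 rose and 2 fell. Pde7b, a phosphodiesterase that degrades cyclic AMP, had log2 intensities of 8.46, 7.65 and 8.16 in IMM 1, 2 and 8, against 8.72, 8.81 and 8.82 in NIMM 1, 3 and 4 and 9.05, 9.09 and 9.11 in GKO-IMM 1, 2 and 3. IMM 2 was lowest, IMM 1 nearest to the others, and the difference was -0.84 ± 0.13 (adjusted p = 0.0178; 0.084 without IMM 8 and 0.0593 without GKO-IMM 3). Pde11a fell by 0.34 ± 0.07 on the log2 scale (adjusted p = 0.0405), and Pde5a, which degrades cyclic GMP, rose by 0.45 ± 0.07 (adjusted p = 0.0222). Both calls were lost in most of the fits that left out 1 line, with adjusted p up to 0.128 for Pde11a and 0.0885 for Pde5a. The other 11 of 14 phosphodiesterase genes tested did not pass, and the median was 0.03. Stim1, the calcium sensor of the endoplasmic reticulum, read 7.38, 7.23 and 7.47 in IMM 1, 2 and 8, 7.75, 7.92 and 8.01 in NIMM 1, 3 and 4, and 7.95, 7.94 and 8.14 in GKO-IMM 1, 2 and 3 (log2 intensity). Each IMM line was below each other line, by 0.28 at the nearest, and the difference was -0.59 ± 0.08 (adjusted p = 0.00596). Fzd4, a Wnt and Norrin receptor encoded on chromosome 7, fell by 0.66 ± 0.12 (adjusted p = 0.0315). This call was lost without any one of 6 lines (adjusted p up to 0.173, without IMM 8). Lrp8, a receptor for reelin and apolipoprotein E, fell by 0.68 ± 0.10 (adjusted p = 0.0137), with adjusted p of 0.0546, 0.0535 and 0.0511 without IMM 1, IMM 8 and GKO-IMM 3. Arfgef3, of the family of ARF exchange factors, fell by 0.72 ± 0.11 (adjusted p = 0.0178; 0.1 without IMM 8 and 0.0593 without GKO-IMM 3). Olfr566, an olfactory receptor gene on chromosome 7, had log2 intensities of 4.55, 4.65 and 4.45 in IMM 1, 2 and 8, against 5.53, 5.22 and 5.89 in NIMM 1, 3 and 4 and 6.02, 5.63 and 5.70 in GKO-IMM 1, 2 and 3. The IMM lines lay at least 0.57 below the others and the difference was -1.11 ± 0.13 (adjusted p = 0.00352), though all 3 IMM lines were under the level of the filter on dim genes (4.74), which was set on the mean over the 9 lines.

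Antigen presentation and IFN-γ signalling genes did not pass. Of 20 MHC class I presentation genes, none passed, 1 was above and 1 below all 6 others, 1 had an unadjusted p under 0.05, and the median was 0.02. The MHC heavy chain gene H2-K1 read 6.73, 5.99 and 6.42 in IMM 1, 2 and 8, 5.97, 6.14 and 6.54 in NIMM 1, 3 and 4, and 6.76, 6.42 and 6.41 in GKO-IMM 1, 2 and 3 (log2 intensity). The 3 groups overlapped, with a difference of 0.0058 ± 0.16 (adjusted p = 0.989). B2m, the light chain of MHC class I, was at 0.02 ± 0.06 and Tap1, a subunit of the peptide transporter, at 0.16 ± 0.08 (adjusted p = 0.903 and 0.317). Of 14 IFN-γ receptor and JAK-STAT genes, none passed, 1 had an unadjusted p under 0.05 and the median was 0.03. Ifngr1, the ligand-binding chain of the IFN-γ receptor, was at 0.13 ± 0.06 and the kinases Jak1 and Jak2 were at -0.03 ± 0.05 and 0.13 ± 0.06. Irf1, an early target of IFN-γ, was at 0.11 ± 0.12 (adjusted p = 0.676). Pias1, a SUMO ligase that inhibits STAT signalling, was above all 6 others at 0.14 ± 0.03 (adjusted p = 0.168). Of 20 interferon response genes, none passed and none was beyond all 6 others, while 7 had an unadjusted p under 0.05 (16.4% of all genes did). Their median was 0.01, and under quantile normalization it was -0.00085. These cultures were measured as lines, and the labels record no treatment with IFN-γ.

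Of 25 checkpoint ligand and suppressive factor genes, 1 rose, 1 fell and 5 were beyond all 6 others, against 6.79% of all genes tested. The median was 0.04. Cd276, the checkpoint ligand also called B7-H3, had log2 intensities of 8.18, 8.13 and 8.15 in IMM 1, 2 and 8, against 7.94, 7.90 and 7.84 in NIMM 1, 3 and 4 and 7.85, 7.83 and 7.96 in GKO-IMM 1, 2 and 3. Every IMM line was above every other line, but the difference was small, 0.27 ± 0.05 (1.20-fold; adjusted p = 0.0392). The call was kept without NIMM 4 and lost without each of the 8 other lines (adjusted p 0.051 to 0.166). Tgfb1, the suppressive cytokine, read 7.01, 6.59 and 6.87 in IMM 1, 2 and 8, 7.18, 7.20 and 7.28 in NIMM 1, 3 and 4, and 7.23, 7.36 and 7.53 in GKO-IMM 1, 2 and 3 (log2 intensity). IMM 2 was lowest and IMM 1 nearest to the others. Tgfb1 fell by 0.47 ± 0.09 on the log2 scale (adjusted p = 0.0392). That call was kept without IMM 1 or NIMM 4 and lost without each of the 7 other lines (adjusted p 0.0557 to 0.149). Cd274, which encodes PD-L1, had log2 intensities of 7.57, 6.82 and 7.31 in IMM 1, 2 and 8, against 7.16, 7.17 and 7.17 in NIMM 1, 3 and 4 and 7.31, 7.11 and 7.02 in GKO-IMM 1, 2 and 3. IMM 1 was the highest and IMM 2 the lowest of the 9 lines, and the difference was 0.08 ± 0.13 (adjusted p = 0.809). Nectin2, a ligand of lymphocyte receptors encoded on chromosome 7, was below all 6 others at -0.32 ± 0.07 (adjusted p = 0.0633). The galectin gene Lgals9 was above them at 0.30 ± 0.08 (adjusted p = 0.107). Without NIMM 4, 1 gene of the list rose and 2 fell. In the TGF-β pathway, Tgfb1 and Ltbp4, a protein that binds latent TGF-β in the matrix, fell among 19 genes, none rose and the median was -0.03. Tgfb1 lies at chr7:25687002-25705077. From 20 to 30 Mb on chromosome 7, 63 of 71 genes with a mean log2 intensity above 6 had a difference below 0. Their median was -0.15. Ltbp4 lies on chromosome 7 too. Whether either gene fell apart from its neighbours was not tested. Ltbp4 was at -0.42 ± 0.06 (adjusted p = 0.0147; 0.0512 without IMM 1, 0.0511 without GKO-IMM 3 and 0.119 with the 6 others as 1 group).

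None of 13 lymphocyte recognition and adhesion ligands passed (median 0.09; 4 with an unadjusted p under 0.05). None of 25 genes for death pathways and granzyme inhibitors did either (median -0.02; 5 unadjusted), though 1 of them rose without NIMM 4. Among 18 melanocyte pigment and identity genes none passed, 3 had an unadjusted p under 0.05, and the median was 0.04. Oca2, a melanosomal membrane protein on chromosome 7, read 9.24, 8.03 and 8.13 in IMM 1, 2 and 8, 9.04, 9.11 and 9.04 in NIMM 1, 3 and 4, and 9.47, 9.50 and 9.50 in GKO-IMM 1, 2 and 3 (log2 intensity). IMM 2 and IMM 8 were below all 7 other lines and IMM 1 lay between the NIMM and the GKO-IMM lines, and the difference was -0.81 ± 0.21 (adjusted p = 0.104). Mitf, the melanocyte master regulator, was at 0.17 ± 0.10 (adjusted p = 0.412).

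**Figure D2:**
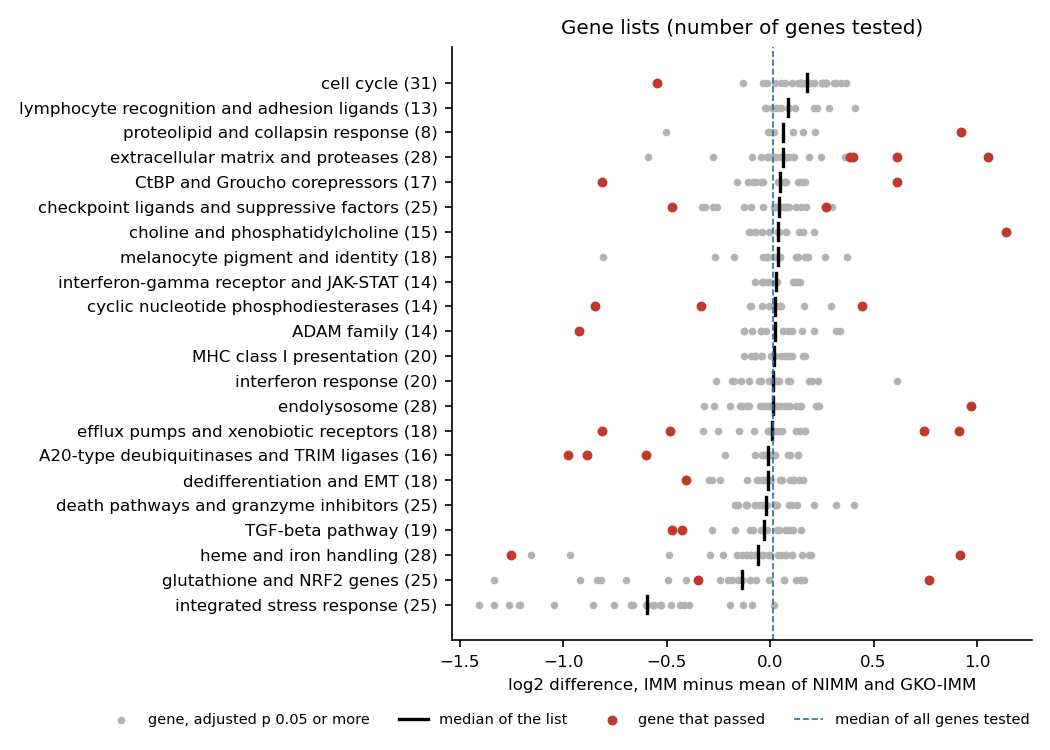
Log2 difference of each tested gene, IMM minus the mean of NIMM and GKO-IMM (x axis), for 22 gene lists with the number of genes tested in brackets, ordered by median. Grey points are genes that did not pass, red points genes that passed, black bars the list medians and the dashed line the median of all genes tested (0.01); the medians run from -0.59 for the integrated stress response to 0.18 for the cell cycle, and the lists of MHC class I presentation and of the IFN-γ receptor, in which no gene passed, sit near the dashed line.

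The list farthest from 0 was the integrated stress response, the program driven by the transcription factor ATF4. Its 25 genes had a median of -0.59, none passed, 2 were below all 6 others and 14 had an unadjusted p under 0.05, against 16.4% of all genes tested. Atf5, a transcription factor of this program, read 6.12, 6.00 and 6.25 in IMM 1, 2 and 8, 6.11, 6.45 and 8.54 in NIMM 1, 3 and 4, and 8.10, 7.89 and 8.10 in GKO-IMM 1, 2 and 3 (log2 intensity). The 3 IMM lines were level with NIMM 1 and NIMM 3, while NIMM 4 and the GKO-IMM lines were higher by more than 1 log2 unit. The difference was -1.41 ± 0.40 (adjusted p = 0.132). Phgdh, the first enzyme of serine synthesis, had log2 intensities of 7.24, 7.41 and 7.37 in IMM 1, 2 and 8, against 7.61, 7.45 and 8.21 in NIMM 1, 3 and 4 and 7.90, 8.11 and 8.16 in GKO-IMM 1, 2 and 3. Here the IMM lines were just below NIMM 3, the nearest other line, at -0.57 ± 0.14 (adjusted p = 0.0881). Slc3a2, the heavy chain shared by amino acid transporters, was at -0.53 ± 0.14 (adjusted p = 0.119). The list's median was -0.30 against the NIMM lines, NIMM 4 included, and -0.94 against the GKO-IMM lines. Without NIMM 4 the median against the mean of both groups was -0.40, with 11 genes falling and none rising. A median against NIMM 1 and NIMM 3 alone is not given here, so these falls do not show a difference from both groups.

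Of 31 cell cycle genes, none rose and 1 fell, and 5 were above all 6 others, against 3.84% of all genes tested. The median was 0.18 (0.12 without NIMM 4, where 1 rose and 1 fell). Rrm1, the large subunit of ribonucleotide reductase, was the gene that fell. It had log2 intensities of 10.58, 10.54 and 10.42 in IMM 1, 2 and 8, against 11.08, 11.18 and 10.75 in NIMM 1, 3 and 4 and 11.03, 11.15 and 11.17 in GKO-IMM 1, 2 and 3. All IMM lines were below the lowest other line, NIMM 4, and the difference was -0.55 ± 0.09 (adjusted p = 0.0201; up to 0.117, without IMM 8). Bub1, a spindle checkpoint kinase, was above all 6 others at 0.31 ± 0.07 (adjusted p = 0.0881), and Aurka, a mitotic kinase, was at 0.34 ± 0.09 (adjusted p = 0.12).

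Of the 82 genes that fell, 43 lie on chromosome 7, which holds 8.01% of the genes tested. Chromosome 7 also held 145 of the 483 genes below all 6 others, which is 11.1% of its genes, and 33 of the 628 above them. The chromosome was then read in windows of 10 Mb, over genes with a mean log2 intensity above 6, since dim genes show little of any difference. This cut and the boundary at 110 Mb were chosen after the values were seen and carry no test. Up to 110 Mb, 371 of 422 genes (87.9%) had a difference below 0, 116 (27.5%) were below all 6 others, 34 fell and 1 rose (Capn5, a calpain protease), and the median was -0.15. From 110 Mb on, the median of 192 genes was 0.0052, 5.21% were below all 6 others and 5 fell. On the other chromosomes the median of 8362 genes was 0.01 and 3.04% were below all 6 others. Of the genes named elsewhere as lower, Blvrb, Tgfb1, Ltbp4, Nectin2, Slco3a1, Fzd4, Erf and Fxyd1 lie on chromosome 7. Whether any of them fell apart from its neighbours was not tested.

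Set against the mean of the 6 others, the medians up to 110 Mb were -0.17, -0.15 and -0.14 in IMM 1, 2 and 8, between -0.05 and 0.04 in the 6 others, and -0.06 in the parent. All 10 windows up to that point that held at least 15 such genes had medians between -0.22 and -0.12, and the 4 windows beyond it had medians between -0.02 and 0.04. Of 203 windows on the other chromosomes, 2 had a median below -0.1. Without NIMM 4 the median up to 110 Mb was -0.15, with 126 genes below all others and 54 that fell.

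**Figure D3:**
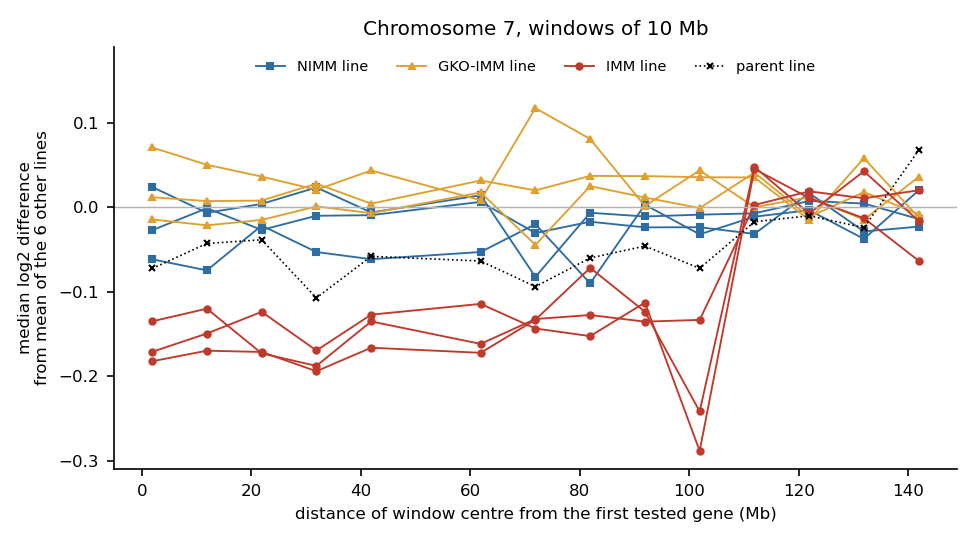
Median log2 difference of each line from the mean of the 6 NIMM and GKO-IMM lines (y axis) in windows of 10 Mb along chromosome 7, plotted at the distance of the window centre from the first tested gene (x axis), for genes above log2 6 and windows of at least 15 such genes. Each connected set of points is 1 line; over the first 10 windows the 3 IMM lines sit at -0.14 to -0.17 in the median, and over the last 4 windows all lines lie near 0.

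Genes that passed without overlap formed 3 stretches of neighbours on chromosome 7. From Clpb to Rnf121 (chr7:101663596-102072437), 6 of 10 genes tested passed without overlap, and the largest fall was that of Numa1, a spindle pole protein. Numa1 read 8.35, 8.29 and 8.30 in IMM 1, 2 and 8, 8.79, 8.82 and 8.80 in NIMM 1, 3 and 4, and 8.92, 8.90 and 9.02 in GKO-IMM 1, 2 and 3 (log2 intensity). The IMM lines were 0.44 below the nearest other line and the difference was -0.56 ± 0.05 (adjusted p = 0.000803). From Nup98 to Olfr566 (chr7:102119400-102858765), 8 of 12 genes passed without overlap, among them Stim1, Rrm1, Trim21 and Trim68 described above.

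The third stretch lies beyond 110 Mb, in a window whose median was 0.01. From Eef1akmt2 to Ctbp2 (chr7:132827457-133124009), all 4 genes tested, Eef1akmt2, Abraxas2, Zranb1 and Ctbp2, fell without overlap, with a median of -0.75. Eef1akmt2, which methylates a lysine of a translation elongation factor, had log2 intensities of 6.52, 6.44 and 6.35 in IMM 1, 2 and 8, against 6.81, 6.97 and 6.89 in NIMM 1, 3 and 4 and 7.27, 7.19 and 7.13 in GKO-IMM 1, 2 and 3. NIMM 1 was the nearest to the IMM lines, and the difference was -0.61 ± 0.06 (adjusted p = 0.00152). Abraxas2 read 7.74, 7.69 and 7.88 in IMM 1, 2 and 8, 8.18, 8.37 and 8.49 in NIMM 1, 3 and 4, and 8.57, 8.67 and 8.51 in GKO-IMM 1, 2 and 3 (log2 intensity). NIMM 1 was again the nearest and the GKO-IMM lines were highest. In both neighbouring pairs, Eef1akmt2 with Abraxas2 and Zranb1 with Ctbp2, the 3 IMM lines were lowest of the 9.

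Several genes that fell lie elsewhere. Besides Adam23, Abcc2, Pde7b, Lrp8 and Arfgef3, Fndc4, which encodes a small fibronectin-domain protein, had log2 intensities of 6.40, 6.38 and 6.33 in IMM 1, 2 and 8, against 6.90, 6.85 and 6.87 in NIMM 1, 3 and 4 and 6.98, 6.81 and 6.77 in GKO-IMM 1, 2 and 3. The 6 other lines were within 0.21 of each other and all IMM lines were below them, with a difference of -0.49 ± 0.06 (adjusted p = 0.00352).

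Most of the 119 genes stood farther from the GKO-IMM lines than from the NIMM lines. That was so for 35 of the 44 higher and 60 of the 75 lower genes. Over all genes without overlap the shares were smaller, 336 of 628 above and 305 of 483 below the 6 others. For the 119, the nearest of the 6 others was NIMM 1 for 60 genes, NIMM 3 for 24, NIMM 4 for 10, and GKO-IMM 1, 2 and 3 for 7, 9 and 9. Both comparisons share the IMM lines. Of the 119, 39 passed against the NIMM lines alone, 94 against the GKO-IMM lines alone, 28 against both and 14 against neither. The contrast of GKO-IMM minus NIMM, in which no IMM array enters the difference, called 20 of all genes tested (0.122%) and 0 of the 119 by limma (lowest adjusted p = 0.0798). At an unadjusted p under 0.05 it held 52 of the 119, against 13.9% of all genes tested. Without NIMM 4 it called 30 of the 119, against 7.73% of all genes tested. The 119 were chosen on these same 6 arrays and with the same estimate of the spread, so nothing is read from these shares.

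**Figure D4:**
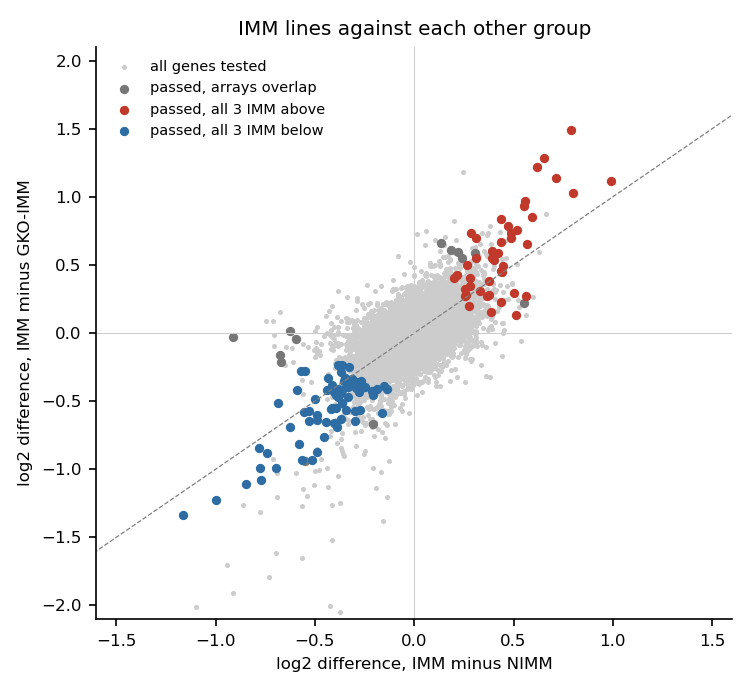
Log2 difference of each gene tested, IMM minus NIMM (x axis) against IMM minus GKO-IMM (y axis), with all genes in light grey, genes that passed without overlap in red (44 higher) and blue (75 lower), and the 13 that passed with overlap in dark grey; the dashed line marks equal differences. Both axes share the IMM lines, and 35 of the red and 60 of the blue points lie farther from 0 on the y axis than on the x axis.

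Slc44a3 differed by 0.79 from the NIMM lines and by 1.49 from the GKO-IMM lines, and Cp by 0.62 and 1.22. Timp1 stood at nearly equal distance, 0.57 and 0.65, as did Abcc2, at -0.78 and -0.85, and Fndc4, at -0.50 and -0.48. In Trim21 and Ltbp4 the NIMM lines were the farther group, with -0.69 and -0.57 against -0.51 and -0.28 for the GKO-IMM lines.

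The parent line gives a level that neither the choice nor the test used. In 34 of the 44 higher genes the parent lay on the side of the 6 others, within their range in 22 and beyond it in 12. In 7 it lay between the groups and in 3, Abcg2, Elapor2 and Aga, within the IMM range. In 49 of the 75 lower genes it lay on the side of the 6 others, in 16 between the groups, in 7 within the IMM range and in 3 beyond the IMM lines. The shares on the side of the 6 others were thus 77.3% and 65.3%. Over all genes without overlap they were 68.5% of the 628 above and 68.5% of the 483 below, so little is read from these counts. Tgfb1, at 6.97, and Fxyd1, a regulator of the sodium pump that fell by 0.57 ± 0.09 (adjusted p = 0.0203; 0.113 without IMM 8), at 5.76, were among those where the parent lay within the IMM range. Pde7b, at 8.03, was another. The parent is 1 array, so these places have no replicate check.

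**Figure D5:**
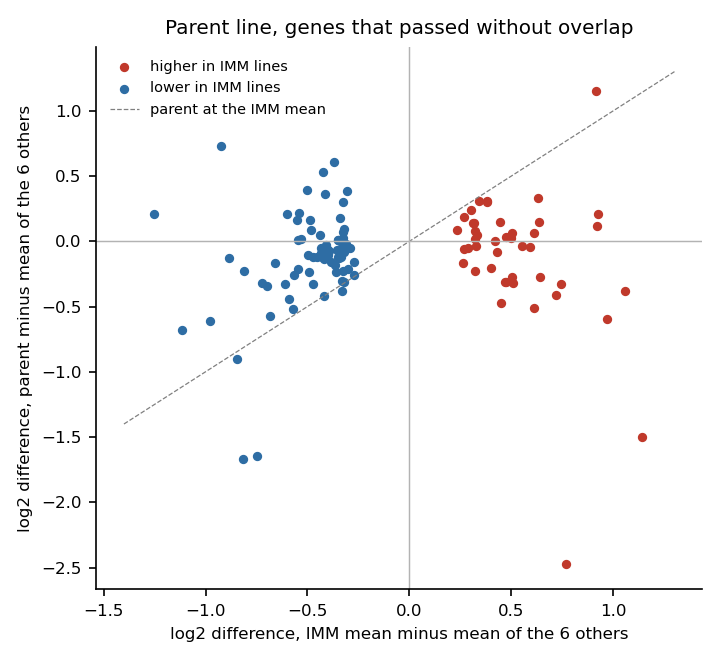
Parent line minus the mean of the 6 NIMM and GKO-IMM lines (y axis) against the IMM mean minus the same mean (x axis), log2 scale, for the 119 genes that passed without overlap, red for the 44 higher and blue for the 75 lower in the IMM lines. The dashed line marks a parent at the IMM mean; most points lie nearer to 0 than to that line, Abcg2 lies above it at the upper right, and Gsta4 and Slc44a3 are the lowest red points.

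Further members, named after their values were seen, include metabolic enzymes and receptors. Lrp2, the endocytic receptor megalin, read 5.96, 5.71 and 6.08 in IMM 1, 2 and 8, 5.59, 5.58 and 5.26 in NIMM 1, 3 and 4, and 5.35, 5.19 and 5.20 in GKO-IMM 1, 2 and 3 (log2 intensity). IMM 2 was nearest to the NIMM lines, and the rise was 0.55 ± 0.10 (adjusted p = 0.0257; up to 0.149, without IMM 8). Acot1, a thioesterase of long-chain acyl-CoA, rose by 0.50 ± 0.08 (adjusted p = 0.024; up to 0.109, without IMM 8). Crot, a peroxisomal carnitine acyltransferase, had log2 intensities of 8.49, 8.52 and 8.44 in IMM 1, 2 and 8, against 8.24, 8.19 and 8.19 in NIMM 1, 3 and 4 and 8.15, 8.18 and 8.09 in GKO-IMM 1, 2 and 3. Both groups were tight, and the rise of 0.31 ± 0.05 (adjusted p = 0.0175) was lost without any one of 3 lines (adjusted p up to 0.0629). Gpt, an alanine aminotransferase, rose by 0.43 ± 0.07 (adjusted p = 0.0222; up to 0.134, without IMM 8). Mapk13, a p38 kinase, read 5.70, 5.54 and 5.63 in IMM 1, 2 and 8, 5.31, 5.12 and 5.11 in NIMM 1, 3 and 4, and 5.10, 5.26 and 5.15 in GKO-IMM 1, 2 and 3 (log2 intensity). All IMM lines were above all others, by 0.45 ± 0.06 in the model (adjusted p = 0.0123; up to 0.0693, without IMM 8), and the parent, at 4.71, was below all 9.

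Among the genes that fell, Aox1, an aldehyde oxidase, had log2 intensities of 6.16, 6.21 and 6.13 in IMM 1, 2 and 8, against 6.38, 6.38 and 6.91 in NIMM 1, 3 and 4 and 6.95, 6.82 and 6.80 in GKO-IMM 1, 2 and 3. NIMM 1 and NIMM 3 were nearest to the IMM lines, and the difference was -0.54 ± 0.10 (adjusted p = 0.0392; up to 0.198, without IMM 8). Ccn4, a secreted matricellular protein first described as a Wnt target, read 6.63, 6.64 and 6.43 in IMM 1, 2 and 8, 7.18, 6.90 and 7.39 in NIMM 1, 3 and 4, and 7.0, 7.04 and 6.91 in GKO-IMM 1, 2 and 3 (log2 intensity). No line overlapped, the difference was -0.50 ± 0.10 (adjusted p = 0.0375), and the call was lost without any one of 7 lines (adjusted p up to 0.201, without IMM 8). Ifnlr1, a chain of the receptor for type III interferons, had log2 intensities of 5.97, 5.87 and 5.97 in IMM 1, 2 and 8, against 6.15, 6.12 and 6.18 in NIMM 1, 3 and 4 and 6.39, 6.27 and 6.42 in GKO-IMM 1, 2 and 3. Most of its values lay below 6.41, the median level over all genes tested. Its difference was -0.32 ± 0.05 (adjusted p = 0.024; up to 0.1, without IMM 8, and 0.124 with the 6 others as 1 group), with the parent at 5.94, within the IMM range. Stx11, a syntaxin, and Dst, a large cytoskeletal linker, differed by -0.43 ± 0.08 and -0.50 ± 0.08 on the log2 scale (adjusted p = 0.0312 and 0.0203). Both calls were kept in 5 of the 9 fits that left out 1 line.

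MicroRNA genes were found in both directions, and their mature sequences are shown since the array reads the hairpin locus and not the mature arm. Seeds (bases 2 to 8) are in capitals, from RefSeq on GRCm38.p6. These microRNA genes were chosen after their values were seen.
mmu-miR-673-5p: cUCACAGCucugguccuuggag
mmu-miR-673-3p: uCCGGGGCugaguucugugcacc
mmu-miR-5125: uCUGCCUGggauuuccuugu
The 3 seeds differ from each other. Mir673 (chr12:109571990-109572080) read 6.84, 6.98 and 7.05 in IMM 1, 2 and 8, 6.42, 6.37 and 6.39 in NIMM 1, 3 and 4, and 6.62, 6.80 and 6.63 in GKO-IMM 1, 2 and 3 (log2 intensity). GKO-IMM 2 was the nearest to the IMM lines, and the rise was 0.42 ± 0.06 (adjusted p = 0.0139; up to 0.0899, without IMM 8, and 0.11 with the 6 others as 1 group). Mir5125 (chr17:23823291-23823369) had log2 intensities of 7.21, 7.26 and 7.04 in IMM 1, 2 and 8, against 7.42, 7.40 and 7.59 in NIMM 1, 3 and 4 and 7.79, 7.74 and 7.71 in GKO-IMM 1, 2 and 3. NIMM lines were nearest to the IMM lines, and the difference was -0.43 ± 0.07 (adjusted p = 0.0147; up to 0.0868, without IMM 8).

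Other motifs tied to regulators among the 119 were also counted in the promoters on both strands. The ETS core CCGGAAG, bound by Etv1 and by Erf, a repressor that fell (0.31 ± 0.06 lower on the log2 scale), was in 9.38% of the higher and 6.45% of the lower genes' promoters, against 15.2% of all. The CCAAT box, bound by Nfyc with its partners, was in 31.2% and 33.9%, against 38.0% of all. The nuclear receptor half-site AGTTCA, bound by Nr1i2, was in 9.38% and 9.68%, against 10.2% of all. Erf and Nfyc were named after their values were seen, as was Capn5.

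At the edge of the rule, Arhgdib and Clu were just inside among the higher genes, by 0.02 log2 units each, and Igf2bp3 and Tinagl1 just outside, by 0.0014 and 0.0071. Among the lower genes Plekhm1 and Atp8a1 were just inside, by 0.03 each, and Slc7a8 and Rnu11 just outside, by 0.0057 and 0.03. In all, 13 genes passed with overlap, 6 higher and 7 lower.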

How the data were processed

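Total RNA of 10 lines was hybridised to Affymetrix MoGene-2_0-st arrays, 1 per line. Per the labels' protocols, RNA was extracted with Trizol and labelled as biotinylated cRNA. Per the file headers, the array annotation is na33 on mouse build mm10, and 1 set of columns holds raw intensity values. These deposited intensities were linear, 1 per transcript cluster, and had nearly the same distribution on every array. The deposited normalized columns hold log2 values that equal the log2 intensity minus its median over the 10 arrays to within 2.23e-06. The series value table repeats them. The steps and software behind the intensities are not stated in the labels or headers.

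Log2 intensities were analysed without further normalization. Of 33793 transcript clusters, 24732 had 1 gene symbol; symbols were updated with a RefSeq table on GRCm38 (20206 current, 2112 updated, 1075 in neither form), and the cluster with the highest mean stood for each of 23360 genes. Genes under percentile 30 of the mean over 9 lines (log2 4.74, intensity 26.7) were left out, which left 16352; of the 7008 left out, 3.12% had all 3 IMM arrays beyond all 6 others. The 9 lines were fitted with limma 3.58.1 in R 4.3.3 (lmFit and eBayes, 3 group means, contrast IMM minus the mean of NIMM and GKO-IMM, two-sided, Benjamini-Hochberg adjustment over all genes tested). Residual degrees of freedom were 6 and prior degrees of freedom 5.25. Precision is limited by the number of arrays. Tested on simulated data with 200 of 16352 genes changed, this contrast recovered 99% of genes changed by 0.5 log2 units and 100% of those changed by 1. The simulated noise was independent, with the same spread for a gene on all 9 arrays and no difference between NIMM and GKO-IMM. A line that stands apart, as NIMM 4 did, was not simulated. These shares therefore do not show that genes that did not pass were unchanged.

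The genes described, the gene lists and the markers were chosen with earlier results of these data known. Named genes were, among those that passed without overlap, the 15 largest differences and 8 widest gaps in each direction, list members that passed, up to 4 members of each list with the smallest p, 19 fixed genes, the ends and largest member of runs of neighbours, genes whose parent value lay with the IMM lines, and the genes nearest to the edge of the rule; predicted genes were passed over, and a few of the genes chosen this way are not reported here. Other genes named were chosen after their values were seen. Lists were described by counts and medians with no set test. The alternatives were NIMM and GKO-IMM as 1 group of 6, the line number as a replicate block, quantile normalization, centred array medians, no filter or one at percentile 50, the mean of transcript clusters, trend and robust priors, array weights, 15 subtracted or 48 added before log2, and each line left out. Python 3.11.15 with numpy 2.4.6, pandas 2.3.3 and matplotlib 3.10.9 did the rest.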

Additional observations from a re-analysis of the deposited data

Results flagged for a closer look

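Of 116 genes that the rule for named genes chose, leaving out those not reported here, 3 had 1 of the 6 NIMM and GKO-IMM lines far from the other 5, by the share of the group's range taken up by the gap next to that line (critical value 0.625 for 6 lines). Chance alone flags about 1 in 20 groups, and 3 of 116 is below that share. In Rrm1 the share was 0.665, with NIMM 4 the line apart. In Pias1 it was 0.674, again for NIMM 4, and in Ifit3 it was 0.635, for NIMM 3. Postn, which passed with overlap, differed between the other groups themselves: GKO-IMM lines were lower than NIMM lines by a log2 difference of -0.53, which passed in the same limma fit (adjusted p = 0.0447). Its difference from the IMM lines was 0.14 for NIMM and 0.66 for GKO-IMM.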

How the results depend on the processing

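The count of 132 genes became 49 with the 6 other lines as 1 group, 82 with no filter, 52 with 15 subtracted before log2 and 265 with array weights, and lay between 39 and 304 with 1 line left out. Its balance of higher genes moved by over 10 percentage points only without IMM 2 (56.4% higher, against 37.9%). The 1111 genes without overlap lay between 1274 and 2488 with 1 line left out, where fewer arrays have to be cleared. The 20 genes called between GKO-IMM and NIMM became 12 with quantile normalization, 13 with centred medians, 9 with no filter, 7 with a filter at percentile 50, 5 with 48 added and 1217 with array weights, and 6 to 1264 with 1 line left out (1264 without NIMM 4). Line numbers did not pair the samples: deviations correlated at -0.13 to 0.12 for the same number and -0.12 to 0.15 for different ones. With the line number as a replicate block, 88 genes passed for the IMM lines (46 of the 119) and 915 for GKO-IMM minus NIMM, with 2 residual degrees of freedom. NIMM 4 and IMM 8 share their number with no other line, so they add nothing to the group differences in that fit. All 119 genes that passed without overlap kept their sign. Among genes that did not pass, small differences such as those of Cd274 (-0.09 to 0.29), H2-K1 (-0.17 to 0.20), Irf1 (-0.09 to 0.25) and B2m (-0.04 to 0.06) changed sign over the alternatives. Of the named genes' alternative values, 2100 stayed on their side of the threshold, 238 lost the call and 37 gained it; the causes were not tested. Signal over background limits what can be said of dim genes.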

Other observations

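Outside chromosome 7, the 10 Mb windows farthest from 0 were read for genes with a mean log2 intensity above 6, as a description chosen after the values were seen. On chromosome X, in the window from 130 to 140 Mb, the median difference of 17 genes was 0.15, with 6 above all 6 other lines and 1 below. On chromosome 2 from 70 to 80 Mb, the median of 35 genes was 0.12, with 9 above and 3 below all others, 1 that rose and 1 that fell. Over the first 50 Mb of chromosome 8, the 5 windows had medians of 0.09 to 0.11. There the IMM lines differed among themselves: IMM 8 was 0.20 to 0.23 and IMM 1 0.07 to 0.19 above the mean of the 6 others, while IMM 2 was between -0.02 and 0.01. Medians below 0 were found from 80 to 90 Mb on chromosome 17, at -0.11 over 33 genes with 3 below all others, and from 60 to 70 Mb on chromosome 1, at -0.10 over 22 genes with 3 below all others and 1 that fell. Over the whole of chromosome 17 the median of 440 such genes was -0.07. Of its 803 genes tested, 39 (4.86%) were below all 6 others and 12 (1.49%) above. Over all genes tested, 2.95% were below and 3.84% above.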
